A study of Mus musculus with 24 samples.

Results

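The genes of creatine cycling were followed by symbol through messenger RNA profiles of whole inguinal subcutaneous white adipose tissue from C57BL/6J mice: the creatine kinases Ckm, Ckmt2, Ckb and Ckmt1, the synthesis enzymes Gatm and Gamt, the creatine transporter Slc6a8, and the phosphatase Alpl. All 8 were found among the 38013 genes that the chow and high-fat diet (HFD) count tables share. Every mouse carried a transgene for the γ1 subunit of AMPK, the energy-sensing kinase, either in its wild-type form (WT-Tg) or in the gain-of-function form D316A (D316A-Tg). The 24 libraries form 4 groups of 6. Both genotypes were sampled at 16 weeks of age on chow and at 24 weeks on HFD with 45% fat. Libraries keep their label numbers, which in each diet are 1 to 6 in the WT-Tg group and 7 to 12 in the D316A-Tg group. The sources used here do not give the transgene's promoter or the sex of the mice, and no mouse without a transgene was sequenced. Diet, age and sequencing cohort change together between the tables, so their parts in any difference between chow and HFD cannot be told apart.

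Creatine kinases move a phosphate group between ATP and creatine. Ckm is the cytosolic isoform of skeletal muscle and Ckmt2 the mitochondrial isoform of striated muscle, whereas Ckb is the cytosolic isoform of brain and many other tissues and Ckmt1 the mitochondrial isoform found widely outside striated muscle. Gatm makes guanidinoacetate from arginine and glycine, Gamt methylates it to creatine, and Slc6a8 takes creatine into the cell. In brown and beige adipocytes a futile cycle of creatine phosphorylation and dephosphorylation is known to release heat without uncoupling protein 1, and Ckb and Alpl, the tissue-nonspecific alkaline phosphatase, are the enzymes assigned to it.

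Ckm and Ckmt2 moved together with skeletal muscle transcripts in these libraries and Ckb did not, so the 250 bases before their RefSeq starts (GRCm38.p6) are shown side by side, with every CANNTG E-box, the kind of site that muscle regulatory factors are known to bind, and every TATAAA box in capitals. The windows are chr7:19410844-19411093 on the plus strand for Ckm, chr13:91876886-91877135 on the minus strand for Ckmt2, and chr12:111672339-111672588 on the minus strand for Ckb.
Ckm: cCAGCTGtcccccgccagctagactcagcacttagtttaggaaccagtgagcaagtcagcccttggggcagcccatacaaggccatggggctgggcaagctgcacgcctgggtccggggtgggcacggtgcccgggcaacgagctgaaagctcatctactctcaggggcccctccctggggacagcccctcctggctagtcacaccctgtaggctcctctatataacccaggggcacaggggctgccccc
Ckmt2: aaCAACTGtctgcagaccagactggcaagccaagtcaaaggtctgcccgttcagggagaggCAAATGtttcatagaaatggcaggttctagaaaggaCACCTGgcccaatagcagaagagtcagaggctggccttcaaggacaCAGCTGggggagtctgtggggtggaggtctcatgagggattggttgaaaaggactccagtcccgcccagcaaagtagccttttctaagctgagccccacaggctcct
Ckb: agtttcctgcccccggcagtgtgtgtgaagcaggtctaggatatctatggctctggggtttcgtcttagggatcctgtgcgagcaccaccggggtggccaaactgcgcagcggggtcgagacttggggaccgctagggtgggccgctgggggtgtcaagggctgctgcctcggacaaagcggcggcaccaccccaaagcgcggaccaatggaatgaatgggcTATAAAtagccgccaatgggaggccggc
The Ckm window held 1 E-box, CAGCTG, which begins 249 bases before the start. The Ckmt2 window held 4, which begin 248, 189, 153 and 107 bases before the start. No E-box lay in the Ckb window, whose only marked site is a TATAAA box 28 bases before the start. Among the other members outside muscle, the Gatm window held 1 E-box, 71 bases before the start. Of the Alpl windows, 1 held 2 E-boxes and the other 1, while the Gamt and Ckmt1 windows held none. No window for Slc6a8 was among the promoters searched. E-boxes thus did not set the muscle isoforms apart from all other members examined. Both strands were searched, and of 32851 RefSeq promoter windows of this length 66.22% held at least 1 E-box, 3.835% at least 4 and 12.37% a TATAAA box. These letters are a description of the windows and no evidence of binding.

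The libraries held 13254536 to 22748132 counts, and adipocyte markers were abundant in all of them (mean log2 CPM of 10 markers from 9.43 to 11.4, where CPM is the count per 1e+06 counts after TMM scaling of the 24 libraries). The muscle score, the mean log2 CPM of 25 skeletal muscle markers that include no creatine gene, ran from -0.91 to 7.13. On chow it was -0.41, 3.41 and 5.86 (lowest, median and highest) in WT-Tg and -0.91, 0.50 and 3.31 in D316A-Tg. On HFD the order was turned, with -0.40, 0.69 and 2.31 in WT-Tg and 2.22, 4.62 and 7.13 in D316A-Tg, so that genotype and muscle score barely overlapped. A B lymphocyte score over 8 markers was used to divide the libraries at a value of 3. It was above 3 in 4 WT-Tg and 2 D316A-Tg libraries on chow and in 1 WT-Tg and 4 D316A-Tg libraries on HFD, although the labels say that the lymph node was removed. On chow no library lay between -0.28 and 5.81. The HFD scores were more graded, with 0.28, 0.74, 1.71 and 4.07 among them. In bulk tissue, fewer cells of a type and less RNA per cell cannot be told apart. Prkag1, the gene of the transgenic subunit, did not differ by genotype past the test's threshold (log2 fold change -0.09, SE 0.18 on chow and 0.25, SE 0.22 on HFD; edgeR adjusted p = 0.748 and 0.445), and since both groups carry a transgene it does not check the labels.

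Ckm (ENSMUSG00000030399, chr7:19404776-19422841 in mm10) was the most variable of the 8 genes. Its level on chow was 0.055, 79.2 and 1544 CPM (lowest, median and highest of 6) in WT-Tg and 0, 8.05 and 51.0 CPM in D316A-Tg. On HFD it was 0.37, 3.72 and 20.6 CPM in WT-Tg and 20.04, 208 and 3235 CPM in D316A-Tg. The groups therefore overlapped widely on chow, while on HFD 5 of 6 D316A-Tg libraries lay above every WT-Tg library. Ckmt2 (ENSMUSG00000021622, chr13:91853387-91876885) ran in parallel at a lower level. It stood at 0, 2.15 and 22.6 CPM in WT-Tg and 0, 0.31 and 4.91 CPM in D316A-Tg on chow, against 0, 0.35 and 1.13 CPM in WT-Tg and 1.62, 9.75 and 133 CPM in D316A-Tg on HFD. All 6 D316A-Tg libraries on HFD were above all 6 WT-Tg libraries. By exon length, 15.5% of Ckm and 5.65% of Ckmt2 overlap an antisense gene; whether counting used strand is not given in the sources used here.

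**Figure D1:**
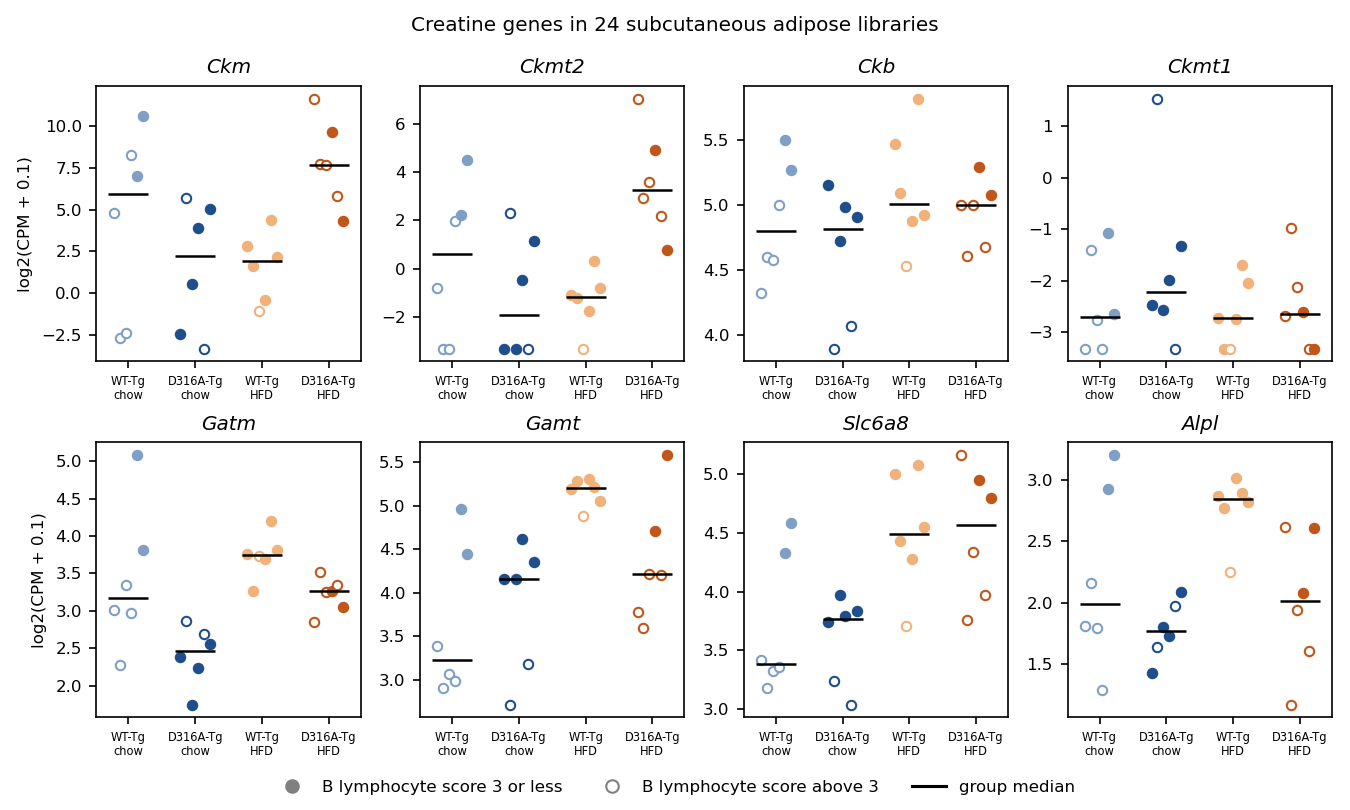
Level of each of the 8 genes in the 24 libraries as log2(CPM + 0.1), by group, with 1 point per library, a black bar at the group median, and open points for libraries with a B lymphocyte score above 3. Ckm and Ckmt2 spread over several log2 units within groups, whereas Ckb stays between 14.8 and 56.4 CPM in all libraries, and open points tend to lie low for Gamt and Slc6a8.

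Read per unit of exon length (RPKM), the makeup of the creatine kinase messenger RNA pool changed from nearly all Ckb to nearly all Ckm between libraries of the same tissue. Ckb held 0.908% of the summed RPKM of the 4 kinases in D316A-Tg library 7 on HFD and 100% in D316A-Tg library 11 on chow, where no Ckm read was counted. Ckm held 94.9% in WT-Tg library 6 on chow. Across groups the median Ckm share was 63.8% in WT-Tg and 17.8% in D316A-Tg on chow, and 10.1% in WT-Tg and 81.4% in D316A-Tg on HFD. Ckb led in 13 libraries, none with a muscle score above 2.31, and Ckm led in 11, none with a score below 2.13. The summed kinase RPKM ran from 5.77 to 1211, so the total level of creatine kinase transcripts in a library was set mainly by Ckm where it was high. Ckmt2 took at most 12.2% and Ckmt1 at most 4.14% of the sum, both in D316A-Tg library 8 on chow.

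**Figure D2:**
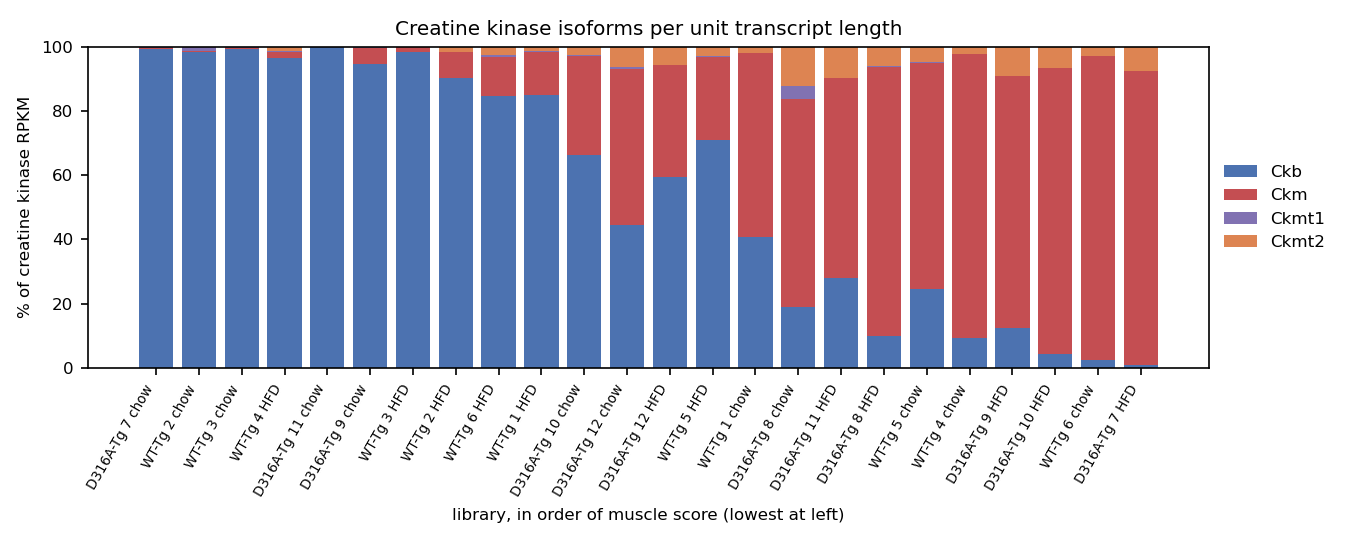
Share of the summed creatine kinase RPKM held by Ckb, Ckm, Ckmt1 and Ckmt2 in each of the 24 libraries, which are ordered by muscle score from the lowest at the left (-0.91) to the highest at the right (7.13). Bars at the left are almost entirely Ckb and bars at the right almost entirely Ckm.

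The members were separated by a test of the slope on the muscle score, with genotype in the model and each diet fitted alone. On chow Ckm rose by 2.06 log2 units per unit of score (SE 0.22, edgeR quasi-likelihood adjusted p = 0.00104), and the slopes of the other 5 tested members did not pass (adjusted p = 1.00 for each). This is 1 of 6 members, against 0.295% of all genes called. Ckmt2 and Ckmt1 did not pass the filter on low counts in the chow table. On HFD both muscle isoforms passed: Ckm with a slope of 1.57 (SE 0.15, adjusted p = 0.000195) and Ckmt2 with 1.27 (SE 0.12, adjusted p = 0.000168). They were 2 of 7 members tested, against 0.724% of all genes, and the smallest adjusted p among the other 5 was 0.789 for Gamt. Of the muscle list itself, 16 of 21 tested markers were called higher with the score in each diet, which its construction fixes. Estimates for the members outside muscle were smaller and of both signs. Gamt had slopes of 0.16 (SE 0.10) on chow and -0.21 (SE 0.09) on HFD, the latter the only one of these with an unadjusted p below 0.05 (0.0429). Slopes on chow and HFD were 0.12 (SE 0.05) and 0.19 (SE 0.09) for Slc6a8, 0.19 (SE 0.09) and 0.0093 (SE 0.07) for Gatm, 0.06 (SE 0.06) and 0.13 (SE 0.07) for Ckb, and 0.11 (SE 0.07) and 0.04 (SE 0.09) for Alpl.

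**Figure D3:**
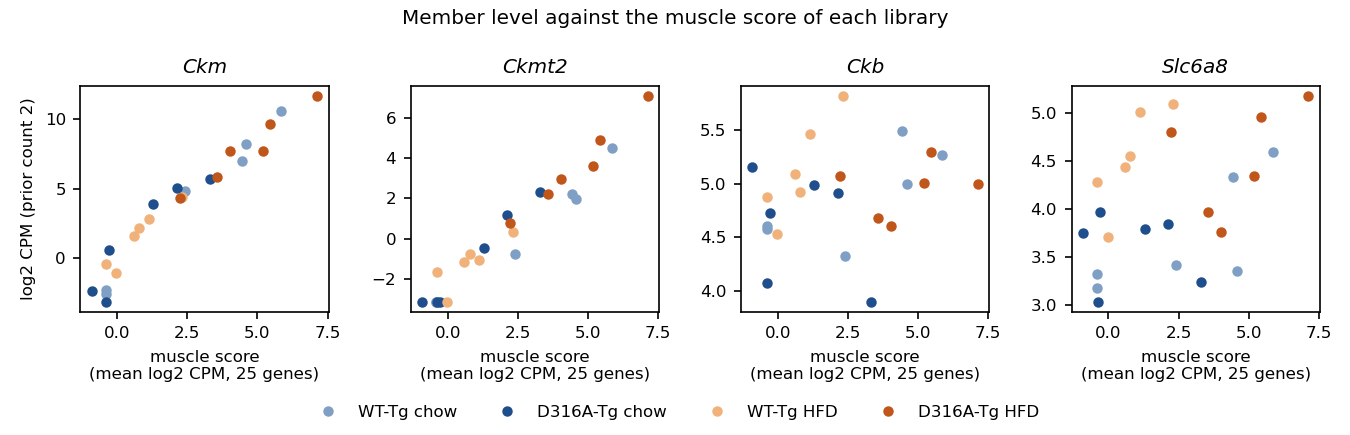
Level of Ckm, Ckmt2, Ckb and Slc6a8 (log2 CPM, prior count 2) against the muscle score of the same library, with 24 points per panel coloured by group. Ckm and Ckmt2 climb with the score in all 4 groups, while Ckb and Slc6a8 have much shallower slopes, at most 0.13 and 0.19 log2 units per unit of score.

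The comparison of D316A-Tg with WT-Tg gave opposite estimates for the muscle isoforms in the 2 diets. On HFD, Ckm was higher in D316A-Tg by 6.94 log2 units (SE 1.45, adjusted p = 0.0227) and Ckmt2 by 6.20 (SE 1.18, adjusted p = 0.0194). Ckmt2 passed the low-count filter on HFD through the D316A-Tg libraries, with 30 to 2418 counts against at most 22 in WT-Tg. Its call there is therefore not independent of that filter. Gatm, the first enzyme of synthesis, was lower by 0.55 (SE 0.16, adjusted p = 0.0495). These 3 were the members called of 7 tested, against 8.47% of all genes; the count was 1 without WT-Tg library 4 or 6, 5 without D316A-Tg library 12, and 0 without the 4 libraries whose muscle score exceeded 4. Those 4 were all D316A-Tg, so only D316A-Tg libraries 11 and 12 were left against 6 WT-Tg libraries, and the fit had less power. On chow the Ckm estimate was -4.27 (SE 2.00, adjusted p = 0.175), and edgeR called 0 of 6 members, against 8.54% of all genes. There 1 member, Gatm, had an unadjusted p below 0.05. DESeq2 called 1 member and limma voom 2, but over all genes they called 2874 and 10826, against 1303 by edgeR. A direct test of the difference between the diets' genotype effects called Ckm (11.2 log2 units, SE 2.58, adjusted p = 0.00889) and Ckmt2 (8.13, SE 2.02, adjusted p = 0.0133), which are 2 of 7 members, against 12.9% of all genes. The muscle markers moved with these values: on HFD all 21 tested markers were called higher in D316A-Tg, with a median of 5.78 log2 units, and on chow none of 21 was called, with a median of -3.47.

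Because muscle content and genotype went together, the same fits were run with the muscle score as a covariate. On HFD the estimate for Ckm became 0.11 (SE 0.62, adjusted p = 0.984) and that for Ckmt2 0.32 (SE 0.53, adjusted p = 0.931). No member was then called on HFD, where edgeR called 0% of all genes; 1 of 7 members, Ckb, had an unadjusted p below 0.05. In chow libraries the Ckm estimate became 1.44 (SE 0.78, adjusted p = 0.258), again with 0 of 6 members called and none at an unadjusted p below 0.05, against 0.531% of all genes called. For the difference between diets the estimates turned to -1.63 (SE 1.04) for Ckm and -2.28 (SE 0.91) for Ckmt2, with 0 of 7 called by edgeR, 1 at an unadjusted p below 0.05 and 0.00622% of all genes called. On HFD the highest WT-Tg score, 2.31, only just passes the lowest D316A-Tg score, 2.22, so genotype and muscle content can hardly be told apart there.

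Ckb (ENSMUSG00000001270, chr12:111669361-111672338), the kinase of the thermogenic cycle, was the steadiest of the kinases. It measured 30.6 ± 9.80 CPM (SD, n = 6) in WT-Tg and 25.8 ± 8.38 in D316A-Tg on chow, and 36.2 ± 12.1 and 31.1 ± 5.52 on HFD. On chow the WT-Tg libraries ranged from 19.9 to 45.1 CPM and those of D316A-Tg from 14.8 to 35.5 CPM, and on HFD the D316A-Tg range of 24.3 to 39.2 lay wholly within the WT-Tg range of 23.01 to 56.4. The genotype estimates of -0.32 (SE 0.23, adjusted p = 0.367) on chow and -0.23 (SE 0.20, adjusted p = 0.439) on HFD did not pass the test. Ucp1, the uncoupling protein of the classical thermogenic route, had estimates of 1.85 (SE 0.99, adjusted p = 0.223) on chow and 0.54 (SE 1.35, adjusted p = 0.802) on HFD. On HFD the medians of Ucp1 had the opposite order to that estimate, 91.2 CPM (WT-Tg) against 8.76 CPM (D316A-Tg). Library 7 of D316A-Tg held 1050.3 CPM and the other 5 held 1.35 to 60.3 CPM, whereas WT-Tg libraries ranged from 23.2 to 370.0 CPM.

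Gatm (ENSMUSG00000027199, chr2:122594467-122611303), which makes guanidinoacetate, was lower in D316A-Tg in both diets by point estimate. On chow it measured 4.77, 8.99 and 33.8 CPM (lowest, median and highest) in WT-Tg and 3.25, 5.44 and 7.18 CPM in D316A-Tg. All 6 D316A-Tg libraries were below the WT-Tg median, yet the groups overlapped, and the estimate of -1.31 (SE 0.42) did not pass with edgeR (adjusted p = 0.0683). It passed with DESeq2 (-1.30, adjusted p = 0.0216), voom (-0.85, adjusted p = 0.0182) and edgeR's fit of all 24 libraries (-1.30, adjusted p = 0.00755). Over all genes these fits called 2874, 10826 and 3615, against 1303 in the main fit. WT-Tg library 5, at 33.8 CPM, carried much of the size of the Gatm estimate: without that library it was -0.78 (SE 0.28, adjusted p = 0.0951). The same library had the highest score of 8 Schwann and neuronal markers, 4.36 against 3.38 in the next, and the most Mbp, a gene of the myelin sheath, at 284 CPM against at most 104 in the other 23; the part of nerve in its Gatm level was not tested. On HFD Gatm measured 9.49, 13.3 and 18.4 CPM in WT-Tg and 7.12, 9.47 and 11.3 CPM in D316A-Tg, where 4 of 6 D316A-Tg libraries lay below every WT-Tg library. The HFD call held in 2 of the 12 fits that left out 1 library each (without WT-Tg library 2 or D316A-Tg library 12), with adjusted p from 0.0399 to 0.113 and estimates from -0.63 to -0.44 over the 12 fits. Of 11 other alternatives it held in 1, DESeq2 (adjusted p = 0.0120); RLE scaling gave 0.0512, the fit without the robust step 0.0502 and voom 0.0712.

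Gamt (ENSMUSG00000020150, chr10:80258151-80261012), which completes creatine synthesis, split the chow libraries by B lymphocyte score more clearly than by genotype. In WT-Tg chow libraries with a score above 3 it measured 7.37 to 10.4 CPM (n = 4), and in the other WT-Tg libraries 21.7 to 31.0 (n = 2). D316A-Tg libraries split in the same direction, at 6.44 to 8.99 CPM (n = 2) and 17.7 to 24.4 CPM (n = 4). The 2 sets did not overlap in either genotype. They differed in adipocyte score as well, which was 9.43 to 10.2 in the 6 chow libraries with a B lymphocyte score above 3 and 11.0 to 11.4 in the other 6; the part of adipocyte content was not tested. For Gamt on chow the genotype estimate was 0.08 (SE 0.40, edgeR adjusted p = 0.890), whereas voom called Gamt higher in D316A-Tg (0.90, adjusted p = 0.00177). That voom fit called 10826 genes. On HFD Gamt measured 35.7 ± 3.79 CPM (SD, n = 6) in WT-Tg and 22.7 ± 13.3 in D316A-Tg. There 5 of 6 D316A-Tg libraries lay below the lowest WT-Tg library, at 29.5 CPM, and library 12 stood above all WT-Tg libraries at 47.9 CPM. The estimate of -0.66 (SE 0.29, adjusted p = 0.148) did not pass with edgeR, and voom called Gamt lower (-0.99, adjusted p = 0.00646); with edgeR, without D316A-Tg library 12 it was -1.03 (SE 0.19, adjusted p = 0.00463). The 4 D316A-Tg libraries with a B lymphocyte score above 3 held 12.0 to 18.5 CPM and the other 2 held 26.1 and 47.9 CPM.

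Slc6a8 (ENSMUSG00000019558, chrX:73673150-73682502), the creatine importer, measured 13.9 ± 6.39 CPM in WT-Tg and 12.4 ± 2.96 in D316A-Tg on chow, and 23.8 ± 7.90 and 23.9 ± 8.94 on HFD (SD, n = 6 each). Genotype estimates were -0.23 (SE 0.25, adjusted p = 0.531) on chow and -0.01 (SE 0.28, adjusted p = 0.986) on HFD. As with Gamt, chow libraries with a B lymphocyte score above 3 were lower, at 8.92 to 10.6 CPM against 20.1 and 23.9 CPM in WT-Tg and at 8.08 and 9.34 against 13.3 to 15.5 CPM in D316A-Tg. Alpl (ENSMUSG00000028766, chr4:137741733-137796384), the phosphatase assigned to the cycle, was the lowest of the members outside muscle apart from Ckmt1. It measured 5.02 ± 2.68 CPM in WT-Tg and 3.36 ± 0.557 in D316A-Tg on chow, and 6.81 ± 1.13 and 4.16 ± 1.58 on HFD. On HFD all 6 D316A-Tg libraries lay below the WT-Tg median and 4 below every WT-Tg library. The estimates, -0.62 (SE 0.29, adjusted p = 0.179) on chow and -0.73 (SE 0.24, adjusted p = 0.0744) on HFD, did not pass with edgeR. On HFD Alpl was called by DESeq2 (-0.73, adjusted p = 0.0282) and voom (-0.96, adjusted p = 0.00963); with edgeR, without D316A-Tg library 12 the HFD value was -0.86 (adjusted p = 0.0226), and without WT-Tg library 3 it was -0.80 (adjusted p = 0.0495).

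The members' slope on the B lymphocyte score was tested after these splits had been seen. On chow, Gamt fell by 0.18 log2 units per unit of score (SE 0.02, adjusted p = 5.93e-07), Slc6a8 fell by 0.10 (SE 0.02, adjusted p = 6.91e-05) and Ckb fell by 0.10 (SE 0.02, adjusted p = 0.000172). These 3 of 6 members are a smaller share than that of all genes called, 69.8%. All 10 adipocyte markers and 7 of 9 endothelial markers were called lower with the score there. On HFD Ckb (-0.12, SE 0.03, adjusted p = 0.0298) and Slc6a8 (-0.15, SE 0.05, adjusted p = 0.0495) were called, 2 of 7 members against 14.5% of all genes. Ckm did not follow this score in either diet (adjusted p = 0.707 in each).

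With the B lymphocyte score as a covariate, the chow comparison of genotypes changed for the members outside muscle. Of the 6 tested members, 5 were then called lower in D316A-Tg, against 24.6% of all genes called in either direction. Gatm stood at -1.34 (SE 0.39, adjusted p = 0.0262), Alpl at -0.74 (SE 0.25, adjusted p = 0.0491) and Ckb at -0.65 (SE 0.13, adjusted p = 0.00493). Slc6a8 stood at -0.49 (SE 0.12, adjusted p = 0.0124) and Gamt at -0.42 (SE 0.13, adjusted p = 0.0303). Levels in the 6 chow libraries with a score of 3 or less were also lower in D316A-Tg for 4 of these members. Alpl was 7.51 and 9.11 CPM in WT-Tg libraries 5 and 6 against 2.59 to 4.14 CPM in 4 D316A-Tg libraries, Slc6a8 was 20.1 and 23.9 against 13.3 to 15.5, Ckb was 38.6 and 45.1 against 26.3 to 35.5, and Gatm was 13.9 and 33.8 against 3.25 to 5.76. Gamt overlapped, at 21.7 and 31.0 against 17.7 to 24.4. In the 6 chow libraries with a score above 3 this order held for Ckb alone without overlap (19.9 to 31.9 CPM in WT-Tg against 14.8 and 16.7 in D316A-Tg). There Alpl was 2.35 to 4.38 against 3.01 and 3.83, and Gatm 4.77 to 10.0 against 6.38 and 7.18. In an edgeR fit of only the 6 chow libraries with a score of 3 or less, Gatm (-2.38), Slc6a8 (-0.65) and Alpl (-1.33) were called, with adjusted p = 0.0140, 0.0205 and 0.0160. WT-Tg libraries 5 and 6 also had muscle scores of 4.43 and 5.86, against -0.91 to 2.13 in the D316A-Tg libraries of that set, and the part of muscle in these differences was not tested. With both scores in the model Ckb was called (-0.63, SE 0.16, adjusted p = 0.0293), and the other estimates kept their sign without passing: -1.003 for Gatm (SE 0.41), -0.59 for Alpl (SE 0.30), -0.37 for Gamt (SE 0.15) and -0.35 for Slc6a8 (SE 0.12). Without the 3 chow libraries whose muscle score exceeded 4, and with no score in the model, edgeR gave -0.58 for Gatm (adjusted p = 0.223), -0.25 for Alpl (adjusted p = 0.411), 0.069 for Ckb (adjusted p = 0.841) and 0.22 for Slc6a8 (adjusted p = 0.402). That fit kept only WT-Tg libraries 1, 2 and 3, with B lymphocyte scores of 6.81 to 7.01. Of its 6 D316A-Tg libraries, 4 had scores of 3 or less, so genotype and B lymphocyte score went together in it. Markers of some other cell types were lower in D316A-Tg in the fit with the B lymphocyte score too. Called lower were 9 of 9 endothelial markers (median -0.98), 5 of 8 of smooth muscle (median -1.10), 4 of 7 of Schwann cells and neurons (median -0.91) and 2 of 8 of fibroblasts and progenitors (median -0.45). Called higher were 6 of 9 brown and beige adipocyte markers (median 1.43) and 1 of 4 neutrophil markers. None was called of 7 macrophage, 4 epithelial or 21 skeletal muscle markers, and 0 of 10 adipocyte markers were called, with 2 at an unadjusted p below 0.05. The part of these cell types in the members' differences was not tested. On HFD the B lymphocyte covariate left 0 of 7 members called by edgeR, against 0.171% of all genes, but the estimates of the 3 members called without it were as large or larger: 8.12 for Ckm (SE 1.93, adjusted p = 0.107), 6.24 for Ckmt2 (SE 1.51, adjusted p = 0.108) and -0.57 for Gatm (SE 0.20, adjusted p = 0.220). These 3 had an unadjusted p below 0.05.

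**Figure D4:**
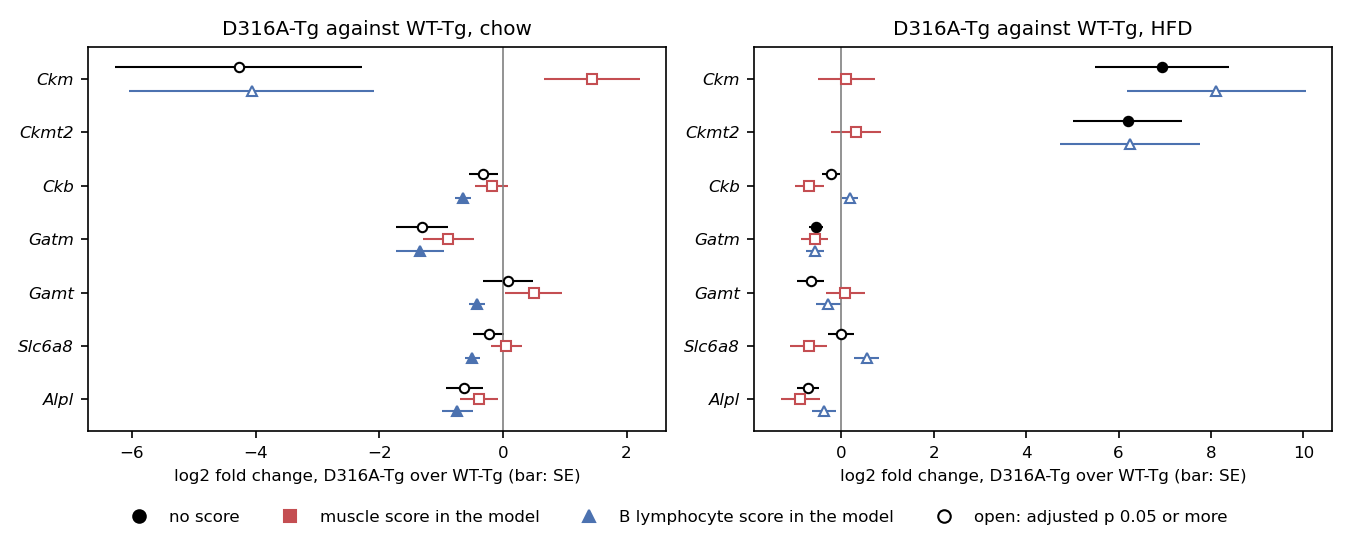
Log2 fold change of D316A-Tg over WT-Tg on chow (left) and HFD (right) for the tested members, with SE bars, from fits with no score (circles), with the muscle score (squares) and with the B lymphocyte score (triangles); filled symbols have an adjusted p below 0.05. With the muscle score, Ckm and Ckmt2 sit near 0 on HFD, and with the B lymphocyte score the 5 members outside muscle are filled and below 0 on chow.

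Between cohorts, the transporter Slc6a8 was higher on HFD in both genotypes. It was higher by 0.72 log2 units in WT-Tg (SE 0.27, adjusted p = 0.0260) and by 0.95 in D316A-Tg (SE 0.27, adjusted p = 0.00792). Gamt was higher on HFD by 1.26 in WT-Tg (SE 0.37, adjusted p = 0.00580), where all 6 chow libraries but library 5, at 31.0 CPM, lay below the lowest HFD library. The muscle isoforms went in opposite directions: in WT-Tg the HFD cohort was lower by 5.81 for Ckm (SE 1.85, adjusted p = 0.0105) and by 3.64 for Ckmt2 (SE 1.44, adjusted p = 0.0335), and in D316A-Tg it was higher by 5.41 for Ckm (SE 1.81, adjusted p = 0.0214) and by 4.49 for Ckmt2 (SE 1.42, adjusted p = 0.0159). In all, 4 of 7 members were called in WT-Tg, against 60.4% of all genes, and 3 of 7 in D316A-Tg, against 37.2%, so neither share stands far above its background. The count in WT-Tg was 2 without WT-Tg library 1 on HFD, and that in D316A-Tg was 1 without D316A-Tg library 7 on HFD. With the muscle score in the model, Gamt (1.35), Slc6a8 (1.02) and Ckmt2 (1.74) were called higher on HFD in WT-Tg, with adjusted p = 0.0141, 0.00206 and 0.0201, against 56.8% of all genes, and edgeR called 0 members in D316A-Tg, none of them at an unadjusted p below 0.05, against 26% of all genes. Without the lymphocyte-rich libraries the WT-Tg differences were 0.51 for Gamt (adjusted p = 0.0633) and 0.26 for Slc6a8 (adjusted p = 0.287). That fit kept only WT-Tg libraries 5 and 6 on chow, with muscle scores of 4.43 and 5.86. With the B lymphocyte score as a covariate over all libraries, edgeR gave 0.81 for Gamt (adjusted p = 0.00230) and 0.29 for Slc6a8 (adjusted p = 0.193) in WT-Tg, against 53.7% of all genes called. These comparisons use the same libraries as the genotype comparisons, and none of them separates diet from age or cohort.

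Ckmt1 (ENSMUSG00000000308, chr2:121357714-121363737), the mitochondrial isoform found outside striated muscle, was near its detection limit and was not tested. It did not exceed 0.41 CPM in 23 libraries. The exception was D316A-Tg library 8 on chow, with 53 counts or 2.80 CPM. That library also had the highest epithelial marker score of all, 3.22 against 1.08 in the next, and the most Krt8, a keratin of simple epithelia, at 8.60 CPM; the part of epithelium in its Ckmt1 counts was not tested.

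By length-scaled level, Gamt and Ckb were the leading members outside muscle in every group. The median RPKM of Gamt was 6.47 in WT-Tg and 12.3 in D316A-Tg on chow, and 25.4 and 12.8 on HFD. Ckb stood at 9.68, 9.73, 11.1 and 11.0 in the same order, and their ranges overlapped in all groups but WT-Tg on HFD, where the lowest Gamt value, 20.4, passed the highest Ckb value, 19.5. Gatm followed at 2.99, 1.81, 4.43 and 3.16, close to Slc6a8 at 1.98, 2.59, 4.30 and 4.59, whose ranges overlapped those of Gatm in each group. Alpl stood at 0.965, 0.819, 1.75 and 0.975, and Ckmt1 was the lowest member in each group, with medians up to 0.047.

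Genes around the cycle were examined in 3 lists. The first holds 10 genes of methyl group, arginine and glycine metabolism, some of which make and others use up precursors of creatine. Of these, 9 could be tested in each diet and edgeR called none by genotype, against 8.54% and 8.47% of all genes. At an unadjusted p below 0.05 there were 0 on chow and 1 on HFD, where 4553 of 15249 and 4497 of 14649 of all genes had such a p. The median estimate was -0.12 on chow and -0.0039 on HFD, against -0.07 and 0.01 over all genes. The lowest adjusted p on HFD was that of Asl, which releases arginine in the urea cycle (0.30, SE 0.09, adjusted p = 0.0516). Of 12 partners of phosphate transfer, such as adenine nucleotide carriers, mitochondrial pores and adenylate kinases, 2 were higher in D316A-Tg on chow: Slc25a5, an ADP/ATP carrier (0.77, SE 0.14, adjusted p = 0.0169), and Vdac2, an outer membrane pore (0.50, SE 0.14, adjusted p = 0.0498). These 2 of 12 stand against 8.54% of all genes, with 7 of 12 at an unadjusted p below 0.05. On HFD 1 of 12 was called, against 8.47% of all genes and with 4 at an unadjusted p below 0.05: Ampd1, the AMP deaminase of skeletal muscle (6.93, SE 1.29, adjusted p = 0.0194), which also rose with the muscle score there (1.33 per unit, SE 0.21, adjusted p = 0.00940). Like Ckmt2, Ampd1 passed the low-count filter there through D316A-Tg, with up to 2641 counts against at most 14 in WT-Tg. With the muscle score in the model edgeR called 0 of the 12 in either diet, against 0.531% of all genes on chow and 0% on HFD. At an unadjusted p below 0.05 were 7 of the 12 on chow and 2 on HFD, against 3988 of 15249 and 768 of 14649 of all genes. Among the 6 genes of creatine efflux and related phosphatases, 3 could be tested and none was called by genotype, with 1 at an unadjusted p below 0.05 in each diet. Between cohorts Slc16a12, a creatine exporter, was higher on HFD by 3.63 in WT-Tg (SE 0.46, adjusted p = 8.52e-07) and by 2.29 in D316A-Tg (SE 0.44, adjusted p = 0.000251). The alkaline phosphatases Alppl2 and Akp3 had no count in any library and Alpi at most 0.055 CPM.

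Genes whose pattern was most like each member that passed the filter were ranked by the Pearson correlation of log2 CPM, centred within each group, over the 24 libraries and 13933 genes; r is a measure of likeness, and the points share library makeup and scaling. Ckm was nearest to Pvalb (r = 0.99), Atp2a1 (0.99) and Myh4 (0.98), and Ckmt2 to Mylpf (0.98), Myom2 (0.98) and Pgam2 (0.97); Pvalb, Myh4 and Mylpf are in the muscle score. Ckb was nearest to Cd63 (0.95), its pseudogene Cd63-ps (0.92) and Serpinb6a (0.92), and Gamt to Ptrf (0.96), Rrbp1 (0.95) and Snx7 (0.95). Slc6a8 was nearest to C2cd2 (0.94), Filip1 (0.89) and Eml1 (0.89), and Alpl to Bag2 (0.85), Fam160a1 (0.84) and Mcc (0.83). For Gatm the nearest were Ugt8a, Fa2h and Mbp, genes of myelin (0.75, 0.74 and 0.74), with r of 0.85, 0.81 and 0.85 on chow, where WT-Tg library 5 lies, and 0.33, 0.68 and 0.40 on HFD.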

How the data were processed

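Whole-tissue messenger RNA was profiled in 24 libraries. The authors deposited 1 table of raw read counts per gene for each diet, and per the submitters' processing notes STAR 2.4.1, FastQC and DESeq2 were used with mm10. The sources used here do not give the counting tool, the annotation or whether strand was used, so overlapping and antisense genes may share reads. Per the labels' protocols, RNA came from tissue without its lymph node and libraries were stranded and poly(A)-selected. Nothing in the labels ties libraries to separate litters, so each p-value reflects variation among these samples, part of which may be technical.

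Counts were tested with edgeR 4.0.16 quasi-likelihood fits (R 4.3.3, TMM scaling, filterByExpr, robust step), 12 libraries per diet for genotype and score slopes and 24 for differences between diets or cohorts. Benjamini-Hochberg adjustment ran over all genes tested, at a threshold of 0.05. CPM used TMM factors over the 24 libraries, and RPKM used GENCODE exon lengths. Scores are mean log2 CPM with a prior count of 2. DESeq2 1.42.0, limma 3.58.1 voom, RLE scaling, no filter, no robust step, score covariates, a replicate block and leaving out each library were alternatives. Leaving out lymphocyte-rich (score above 3) or muscle-rich (above 4) libraries and the slopes on the B lymphocyte score were chosen after seeing the data. Without muscle-rich libraries, WT-Tg on chow was reduced to libraries 1, 2 and 3 and D316A-Tg on HFD to libraries 11 and 12. Without lymphocyte-rich libraries, WT-Tg on chow was reduced to libraries 5 and 6 and D316A-Tg on HFD to libraries 10 and 12. The fits were tested on simulated data. Named genes are the 8 members, up to 4 of each pathway list with the lowest adjusted p, the 3 nearest patterns of each member, Prkag1 and Ucp1. The nearest patterns of Ckmt1 are not reported here. Mbp, Krt8, Alpi, Alppl2 and Akp3 were named after their values were seen. The members and lists were chosen with earlier results of these data known.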

Additional observations from a re-analysis of the deposited data

Results flagged for a closer look

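Of 32 sets of 6 libraries (8 genes in 4 groups), 8 had 1 library far above the other 5 by Dixon's criterion on CPM. Its usual rate of about 1 of 20 sets assumes normally distributed values. CPM was skewed within several of these groups, and the sets of different genes share libraries. The count of 8 is therefore not set against that rate. Ckm stood apart in WT-Tg library 6 on chow at 1544 CPM (next 305 CPM), in WT-Tg library 5 on HFD at 20.6 CPM (next 6.99 CPM) and in D316A-Tg library 7 on HFD at 3235 CPM (next 797 CPM). Ckmt2 stood apart in the first and last of these libraries, at 22.6 CPM (next 4.53 CPM) and 133 CPM (next 30.0 CPM). Each of these 3 libraries had the highest muscle score of its group, 5.86, 2.31 and 7.13. Gatm stood apart in WT-Tg library 5 on chow at 33.8 CPM (next 13.9 CPM). Ckmt1 stood apart in D316A-Tg library 8 on chow at 2.80 CPM (next 0.30 CPM) and in the library numbered 8 on HFD at 0.41 CPM (next 0.13 CPM), a different mouse by diet and age.

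The genotype effect differed between the diets for Ckm by 11.2 log2 units and for Ckmt2 by 8.13 log2 units, by edgeR's test of the difference itself; with the muscle score in the model neither difference passed the threshold.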

How the results depend on the processing

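RLE scaling and the fit without the robust step kept all counts of called members within 1.5 times, but both ended the HFD call of Gatm (3 called to 2). Of the single-member values, 225 kept direction and side of the threshold under the alternatives other than leaving out 1 library, 34 reversed, 40 lost and 15 gained the call; over fits leaving out 1 library, 440 kept both, 10 reversed, 26 lost and 4 gained the call. Values kept include members called in neither fit, and a fit that gave no adjusted p was counted as kept if the direction held. For the difference between diets and the cohorts, only members called in the main fit were followed. The cause of each change was not tested.

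On chow, the 0 members called became 1 with DESeq2, 2 with voom, 5 with the B lymphocyte score, 1 with both scores, 1 in the fit of all 24 libraries and 3 without lymphocyte-rich libraries, and 0 to 1 leaving out 1 library. On HFD, the 3 called became 0 with the muscle score, with the B lymphocyte score, with both, and without lymphocyte-rich or muscle-rich libraries, and 1 to 5 leaving out 1 library; DESeq2 and voom called 4 each. The estimates for Ckm and Ckmt2 were 0.11 and 0.32 with the muscle score and 2.69 and 2.86 without muscle-rich libraries, but 8.12 and 6.24 with the B lymphocyte score and 5.86 and 4.99 without lymphocyte-rich ones. For the difference between diets, the 2 called became 0 with the muscle score, with both scores or without muscle-rich libraries, and 4 with the B lymphocyte score. For the cohorts, the 4 called in WT-Tg became 2 with both scores and 2 to 5 leaving out 1 library; the 3 in D316A-Tg became 0 with the muscle score or without muscle-rich libraries, 6 with the B lymphocyte score or without lymphocyte-rich libraries, and 1 to 4 leaving out 1 library. For the muscle slope on chow, the 1 called became 2 with DESeq2 or no filter and 1 to 2 leaving out 1 library.

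Log2 values changed sign as follows. On chow, voom gave 0.13 for Ckb, 0.61 for Ckm and 0.29 for Slc6a8; the muscle score gave 1.44 for Ckm and 0.056 for Slc6a8; both scores gave 0.74 for Ckm and -0.37 for Gamt; the B lymphocyte score gave -0.42 for Gamt. Without muscle-rich libraries Ckb was 0.069, Ckm 0.76 and Slc6a8 0.22, and without lymphocyte-rich libraries Gamt was -0.42 and the muscle slope of Ckb -0.058. Gamt ran from -0.10 to 0.42 leaving out 1 library. On HFD, the B lymphocyte score gave 0.19 for Ckb and 0.54 for Slc6a8; Gamt was 0.084 with the muscle score and 0.63 with both; Slc6a8 was 0.0058 in the fit of all 24 libraries, 0.17 without lymphocyte-rich libraries and -0.15 to 0.12 leaving out 1 library. The difference between diets was -2.28 for Ckmt2 and -1.63 for Ckm with the muscle score, -1.80 and -0.47 with both, and -0.17 for Ckmt2 without muscle-rich libraries. Between cohorts in WT-Tg, Ckmt2 was 1.09 with voom, 1.74 with the muscle score, 1.32 with both and 1.34 without muscle-rich libraries, and Ckm 0.65 with voom and 0.62 with the muscle score. In D316A-Tg, Ckmt2 and Ckm were -0.54 and -1.01 with the muscle score and -0.48 and -0.55 with both.

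Library numbers are shared only between cohorts, of different mice. Deviations of same-numbered libraries correlated above 0.1 in 7 of 12 pairs (-0.37 to 0.61, median 0.24). Among the 6 HFD libraries of the same genotype, 4 of 12 chow libraries correlated best with their own number. Whether same-numbered libraries share more than a number was not tested. With the replicate block, 0 members were called for the difference between diets and 2 between cohorts in WT-Tg.

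Over all genes, the 1303 called on chow became 2874 with DESeq2, 10826 with voom, 3748 with the B lymphocyte score, 3615 in the fit of all 24 libraries, 2305 without lymphocyte-rich and 25 without muscle-rich libraries. On HFD the 1241 called became 0 with the muscle score and 25 with the B lymphocyte score. Ckmt1, at most 7 counts in 23 libraries, is limited by depth.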
